A study of Mus musculus with 5 samples.

Results

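Glycolytic enzymes and their isoforms are described here through 7 genes: Hk2, Pfkl, Pfkp, Aldoa, Pgk1, Pkm and Ldha. On arrays that set adult retina against newborn cortex, Hk2 read 13.9-fold higher in retina, and Pkm, Ldha, Aldoa and Pgk1 read 2.59-fold to 4.66-fold higher. Of the phosphofructokinase genes, Pfkl stood near an equal level. Pfkp did so only as a mean over probes that disagreed in sign. The genes were read with the 12 probes, of 21446 in the deposited table, whose single symbol in the platform annotation was 1 of these 7. All 12 had a value on every array, and no probe with several symbols listed any of them. Of 8798 measured genes these are 7. The 7 were picked with the tissue ratios of these arrays already known, so those ratios are given as a description and carry no test of their own.

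Glycolysis splits glucose into pyruvate in the cytosol, and lactate dehydrogenase can then turn pyruvate into lactate. The adult retina is known for making much lactate even where oxygen is plentiful, and photoreceptors take up most of its glucose. Several steps are served by isozymes from separate genes: hexokinase (Hk2 beside Hk1), phosphofructokinase (Pfkl, Pfkp and Pfkm) and aldolase (Aldoa beside Aldoc).

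RNA of adult retina from C57/B6 mice was compared with RNA of cortex from Swiss-Webster mice on postnatal day 1. Each tissue was 1 pool of total RNA, and aliquots of the same pair of pools were hybridised to 5 two-colour Agilent arrays, called technical replicates by the labels. Per the labels, retina RNA was labelled with Cy5 and the cortex reference with Cy3 on every array, with no swap of dyes. Tissue, age, strain and dye therefore change together and cannot be told apart. The sources used here do not give the exact age of the adults, the sexes or the number of animals in a pool. The series was made to learn how far values vary within a platform. An SD below is the spread between the 5 arrays, which is labelling and hybridisation error, and says nothing of the spread between animals. The limma p-values below rest on that same spread and hold for this pair of pools only.

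A value below is the log2 of retina over cortex, computed from a deposited log10 ratio. The log base and the direction are likely and not stated. Values stop at 2 and -2, and the titles name the retina first. With the direction turned every sign would turn, and with a log2 base every ratio would shrink by a factor of 3.32. Spot brightness was not used here, so the level of one gene cannot be set against that of another, only their ratios. In whole tissue, fewer cells of a type and less RNA per cell cannot be told apart.

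The labels were checked against marker lists. Of 3 measured rod genes 3 were higher in retina by limma's test against a minimum of 2-fold (the 2-fold test below, adjusted by Benjamini-Hochberg over all 8798 genes, threshold 0.05), as was the 1 measured cone gene, Opn1sw. Of 9 immature cortical neuron genes, 8 were lower and 1 did not pass. In the other lists, 3 of 6 Müller glia and astrocyte genes, 5 of 7 genes of bipolar, amacrine, horizontal and ganglion cells and 3 of 7 vessel genes were higher. Of the red cell list 1 of 3 was lower, and of the pigment epithelium list 1 of 1. Over all 8798 genes, 2.8% passed as higher and 3.83% as lower. No muscle gene of 6 and no lens gene of 2 passed in limma, and at an unadjusted p below 0.05 the counts were 0 and 1. Most rod markers, rhodopsin among them, are on the list and had no probe with a single symbol and a value on every array. The rod genes ran from 2.52 to 4.30 and the Müller glia and astrocyte genes from 0.04 to 4.14. The genes of bipolar, amacrine, horizontal and ganglion cells ran from 0.19 to 3.37, and the vessel genes from -0.53 to 1.44. The part of these cell types in the ratios below was not tested.

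The 5 members with high ratios, Hk2, Pkm, Ldha, Aldoa and Pgk1, each hold a short sequence upstream of the gene. The motifs were chosen with the ratios known, so the matches are a description. The first 250 bases before each RefSeq transcript start (GRCm38.p6) were searched on both strands for 5 motifs. All 7 genes matched the promoter table by symbol, with 11 starts in all. ACGTG, or its reverse complement CACGT, is a core of the binding site of hypoxia-inducible factors, which are known to drive many glycolytic genes. It lay before at least 1 start of Hk2, Pkm, Ldha, Aldoa and Pgk1, and before none of Pfkl or Pfkp. Pfkl and Pfkp held the other form of the core, GCGTG, which 50.4% of the measured genes held before at least 1 start. Of all 32851 promoter windows 16.6% held ACGTG or CACGT. Of the 7126 measured genes with a known promoter, 25.8% held it before at least 1 start. Of the 201 genes with a promoter that were higher in retina, 28.4% held it, close to that background. Of the 6 other measured glycolysis genes only Pfkm held ACGTG, and Pfkm did not pass the 2-fold test. Hk1, Aldoc, Tpi1 and Gapdh, which were higher in retina, did not hold it.

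The upstream windows of 3 members with the motif and of 1 without it are shown 5′ to 3′ on the gene's own strand, with ACGTG and CACGT in capitals. The windows, on the strand named, are chr6:82774455-82774704 (minus) for Hk2, chr7:46845554-46845803 (plus) for Ldha, chrX:106186850-106187099 (plus) for Pgk1 and chr10:78009808-78010057 (minus) for Pfkl.
Hk2: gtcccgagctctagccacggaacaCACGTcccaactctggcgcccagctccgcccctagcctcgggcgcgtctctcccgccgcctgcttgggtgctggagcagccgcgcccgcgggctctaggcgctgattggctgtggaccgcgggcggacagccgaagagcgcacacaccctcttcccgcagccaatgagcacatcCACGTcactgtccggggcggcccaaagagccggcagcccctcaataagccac
Ldha: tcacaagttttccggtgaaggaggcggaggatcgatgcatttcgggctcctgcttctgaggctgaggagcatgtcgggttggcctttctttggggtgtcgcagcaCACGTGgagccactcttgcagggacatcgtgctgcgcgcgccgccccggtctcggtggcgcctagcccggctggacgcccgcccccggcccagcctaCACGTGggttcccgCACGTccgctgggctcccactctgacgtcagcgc
Pgk1: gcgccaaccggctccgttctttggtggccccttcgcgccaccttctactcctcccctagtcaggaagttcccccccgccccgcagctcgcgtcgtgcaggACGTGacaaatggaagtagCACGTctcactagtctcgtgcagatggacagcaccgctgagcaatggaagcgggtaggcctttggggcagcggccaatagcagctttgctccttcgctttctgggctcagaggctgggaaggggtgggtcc
Pfkl: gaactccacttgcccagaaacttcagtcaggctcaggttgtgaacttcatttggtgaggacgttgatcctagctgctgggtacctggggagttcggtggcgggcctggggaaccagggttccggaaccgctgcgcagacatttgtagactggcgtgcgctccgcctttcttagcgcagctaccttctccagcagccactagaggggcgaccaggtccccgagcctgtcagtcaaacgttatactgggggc
For Pkm and Aldoa, 30 bases around the match are enough to show it, at chr9:59657140-59657169 (plus) and chr7:126799363-126799392 (minus).
Pkm: ctccgatccggtCACGTccgcgccgcagca
Aldoa: tgtggctcgagtCACGTcctagcggggcgg

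Hk2 held 2 copies, which began 226 and 52 bases before the start, and Pgk1 held 2, at 150 and 131 bases. Ldha held 3 sites before its first start, at 145, 48 and 34 bases, and those at 145 and 48 read CACGTG, which is its own reverse complement and holds both ACGTG and CACGT. That 6-base motif, the E-box bound by Myc and its relatives, occurred before 10.3% of the measured genes and, among the 7 members, only before Ldha. In the 30-base stretches the match began 75 bases before the second of 2 Pkm starts, and 126 or 202 bases before 2 of 3 overlapping or nearby Aldoa starts. The other form of the hypoxia core, GCGTG, was held by Pfkl (1 copy), Pfkp (3) and the second start of Ldha (1). That is 3 of the 7 members, beside 5 of the 6 other glycolysis genes and 50.4% of the measured genes, each counted where at least 1 start held it. TAATCC, a core bound by the photoreceptor factors Crx and Otx2, occurred before Pfkp and the second Ldha start, before 2 of the 6 other glycolysis genes (Pfkm and Aldoc) and before 6.08% of the measured genes. The GC box GGGCGG occurred before 6 of the 7 members, all but Pfkl, before 2 of the 6 other glycolysis genes and before 63.9% of the measured genes. A match describes letters in a window, and binding was not measured.

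Hexokinase phosphorylates glucose and so traps it in the cell. Hk2 is an isozyme that binds the outer mitochondrial membrane and is prominent in photoreceptors. Its single probe, 15313, read 3.93, 3.87, 3.94, 3.57 and 3.68 on arrays 1 to 5. All 5 arrays stood far above 0, with arrays 4 and 5 below the other 3. The mean was 3.80 ± 0.17 (SD, n = 5), or 13.9-fold higher in the retina pool. It ranked 3 from the top of 8798 genes. Its SD was larger than most, since 18.3% of genes had a larger one.

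Hk1, the hexokinase of most brain cells, was also higher in retina. It stood at 1.60 ± 0.03 (SD, n = 5), a 3.03-fold ratio, with an adjusted p of 4.81e-06 in limma's 2-fold test. The log2 ratio of Hk2 exceeded that of Hk1 by 2.38, 2.27, 2.34, 1.96 and 2.05 on the 5 arrays. With a mean difference of 2.20 ± 0.19, the balance of Hk2 to Hk1 lay 4.59-fold further toward Hk2 in retina than in cortex RNA, provided both probes respond alike. That difference includes Hk2 and is a description.

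Phosphofructokinase commits sugar to glycolysis and is a main point of control. Its liver-type gene Pfkl and platelet-type gene Pfkp stood near 0 as means over their probes. The first Pfkl probe, 6940, read 0.45, 0.41, 0.33, 0.38 and 0.23 on arrays 1 to 5, a mean of 0.36 ± 0.09. The second, 16195, read 0.01, 0.14, 0.02, -0.12 and -0.15, a mean of -0.02 ± 0.12. The first probe was above 0 on all arrays and the second lay on either side of it. The ranges did not overlap, as the lowest value of the first, 0.23, was above the highest of the second, 0.14.

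Pfkp had 4 probes, and they disagreed in sign. Probe 1483 read 0.72, 0.80, 0.76, 0.70 and 0.76 on arrays 1 to 5, a mean of 0.75 ± 0.04. Probe 15734 read 0.85, 0.89, 0.63, 0.21 and 0.41, a mean of 0.60 ± 0.29. Both were above 0 on every array, the second with a far wider spread. Probe 15812 read -0.50, -0.47, -0.56, -0.42 and -0.29, a mean of -0.45 ± 0.10, and was below 0 on all 5. Probe 1982 read 0.23, -0.04, -0.18, -0.49 and -1.26, a mean of -0.35 ± 0.57. That probe crossed 0, and its SD was above the 95th percentile of all probes, 0.497.

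The mean over the 4 Pfkp probes, 0.14 ± 0.18, thus joins probes at 0.75 and -0.45 and describes none of them. Their range of 1.20 log2 compares with a median range of 0.74 over the 90 measured genes with 4 probes. Probes of 58 of those 90 genes differed in sign, so disagreement of this kind was common on the array. The sources used here do not say which part of the transcript each probe covers, and whether the probes read different transcript forms was not tested. The muscle-type gene Pfkm, with 1 probe, stood at 0.49 ± 0.08, above 0 on all 5 arrays, and did not pass limma's 2-fold test (adjusted p = 1). Its ratio exceeded the mean of Pfkl by 0.32 ± 0.14 and that of Pfkp by 0.36 ± 0.21. The 3 phosphofructokinase genes therefore stayed under 1.5-fold as gene means (0.17 for Pfkl), while Pfkp probes 1483 and 15734 reached 1.68-fold and 1.51-fold.

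**Figure D1:**
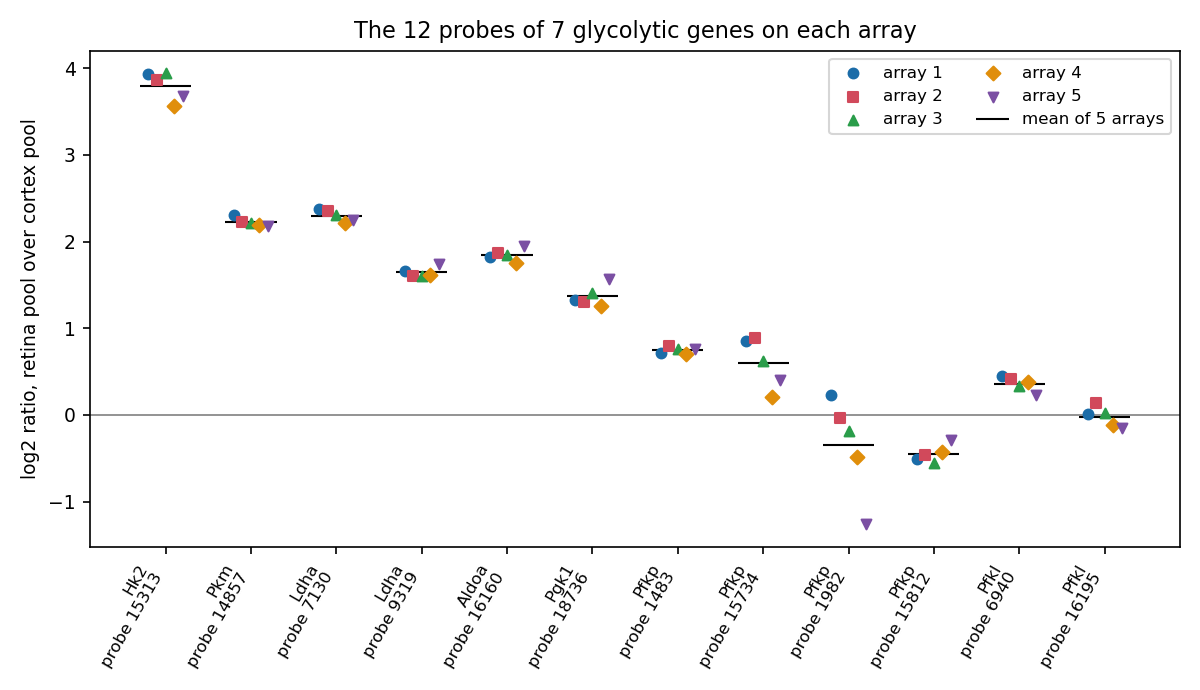
The log2 ratio of retina over cortex (vertical axis) is plotted for each of the 12 probes (horizontal axis), with 1 symbol per array and a line at the mean of 5 arrays. The 6 probes of Hk2, Pkm, Ldha, Aldoa and Pgk1 lie above 1.2 on every array, and the 6 of Pfkp and Pfkl lie between -1.26 and 0.89.

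Aldolase splits the 6-carbon sugar into a pair of 3-carbon sugars. Aldoa, the form of muscle and of many other tissues, read 1.82, 1.87, 1.85, 1.76 and 1.95 on arrays 1 to 5 with its 1 probe, 16160. All arrays lay close together, with a mean of 1.85 ± 0.07, or 3.61-fold. Aldoc, the form typical of astrocytes and some neurons, was higher in retina at 1.34 ± 0.10 (limma adjusted p = 0.00147). Aldoa exceeded Aldoc by 0.51 ± 0.03 log2, and by 0.48 to 0.56 on single arrays, so the gap between the 2 isozymes was steadier than either ratio. This gap came to 1.42-fold.

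The next steps handle the 3-carbon sugars, and Tpi1 and Gapdh, no members, were higher in retina. Tpi1, which interconverts the 2 products of aldolase, stood at 1.85 ± 0.10 or 3.59-fold (limma adjusted p = 1.91e-05). Gapdh, the oxidising step and a gene often used as a constant reference, stood at 1.32 ± 0.19 or 2.49-fold (limma adjusted p = 0.0371). The Gapdh call did not last when array 1, 2, 3 or 4 was left out, with means between 1.33 and 1.36 and limma adjusted p-values from 0.0538 to 0.110. It did last without array 5, where Gapdh read 1.65.

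Phosphoglycerate kinase makes the first ATP that the pathway gains. Pgk1, the X-linked gene of all somatic tissues, read 1.33, 1.31, 1.40, 1.26 and 1.57 on arrays 1 to 5 with its 1 probe, 18736. Every array was above 1.2, and array 5 was the highest. The mean was 1.37 ± 0.12, or 2.59-fold, the smallest of the 5 high members. Enolase was measured only by Eno3, the muscle form, at 0.05 ± 0.04, which did not pass limma's 2-fold test (adjusted p = 1). The other enolase genes had no probe with a single symbol and a value on every array.

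Pyruvate kinase makes pyruvate and the last ATP. Pkm encodes the M1 and M2 forms by alternative splicing, which its 1 probe, 14857, was not used to tell apart. It read 2.30, 2.22, 2.21, 2.20 and 2.18 on arrays 1 to 5. These values were nearly equal, with a mean of 2.22 ± 0.05 or 4.66-fold. The lists held 3 measured splicing repressors of the M1 exon, and none passed limma's 2-fold test. Ptbp1 stood at 0.26 ± 0.14, Hnrnpa2b1 at -0.57 ± 0.12 and Ptbp2, the form of neurons, at -1.23 ± 0.15 (limma adjusted p = 0.0565). Ptbp2 did pass with quantile normalization, with array weights, with the noisiest genes left out, without array 5 and at a minimum of 1.5-fold.

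Ldha encodes the lactate dehydrogenase subunit that favours making lactate. Its first probe, 7130, read 2.37, 2.35, 2.31, 2.22 and 2.25 on arrays 1 to 5, a mean of 2.30 ± 0.06 or 4.92-fold. Its second, 9319, read 1.66, 1.61, 1.61, 1.62 and 1.75, a mean of 1.65 ± 0.06 or 3.13-fold. Both were well above 0 on every array and their ranges did not overlap. They differed by 0.65 ± 0.10 log2, and 76.7% of the 1612 genes with 2 probes had a smaller range. The gene mean was 1.97 ± 0.04. Ldhb, the subunit that favours lactate use, had no probe with a single symbol and a value on every array. Its balance with Ldha was therefore not analysed here. Gapdh, Ldha and Pgk1 have near-identical processed pseudogenes in mouse, and whether their probes also bind those was not tested.

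In the order of their ratios the members ran Hk2, Pkm, Ldha, Aldoa, Pgk1, Pfkl and Pfkp. Hk2 exceeded Pkm by 1.58 ± 0.14 log2, and Pkm exceeded Ldha by 0.25 ± 0.04 as a gene mean, though the higher Ldha probe lay above Pkm. Pfkl and Pfkp differed by 0.03 ± 0.10, less than the spread between arrays. The 5 high members ranked 3, 55, 78, 97 and 191 of 8798 genes, and Pfkl and Pfkp 2608 and 2918.

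**Figure D2:**
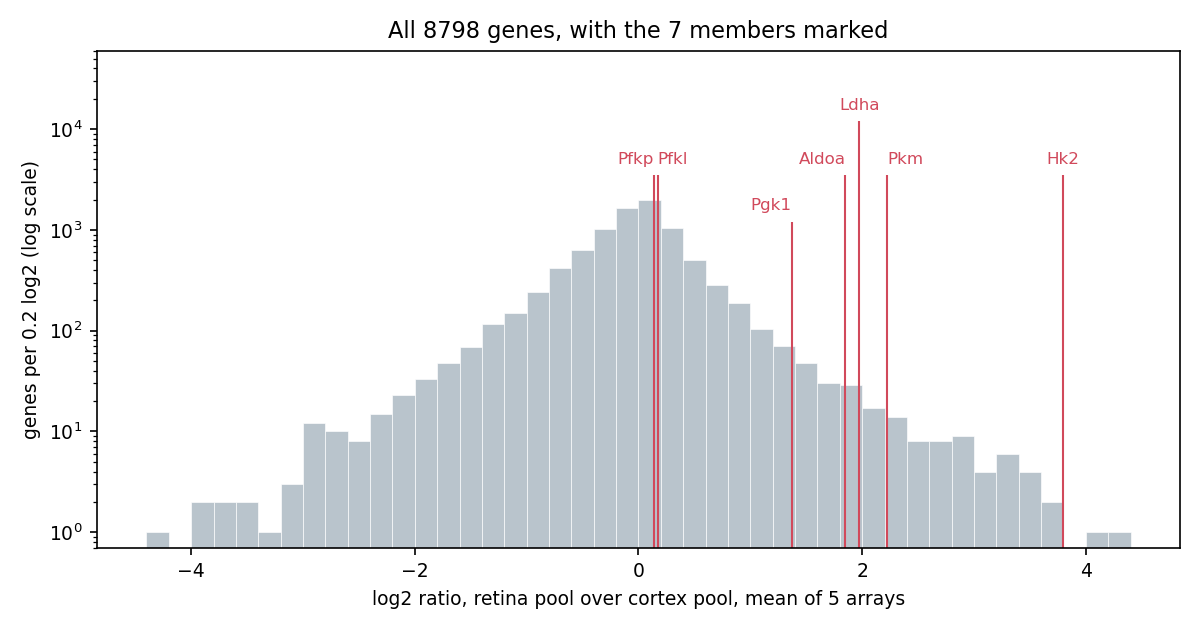
Counts of genes (vertical axis, log scale) are shown in steps of 0.2 log2 of the mean ratio of retina over cortex (horizontal axis), with a line for each of the 7 members. Pfkp and Pfkl stand in the middle of the distribution, and Hk2, at 3.80, near its upper end.

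Of the 7 members 5 passed the 2-fold test, all higher, beside 2.8% of all genes that passed as higher and 6.63% that passed in either direction. The members were chosen on this contrast, so nothing is read from that count. Probe by probe, 6 of 12 passed in the fit on all 20282 complete probes, in which 2.08% passed as higher and 7.58% in either direction. Over the 13 measured genes of the glycolysis list, 9 were higher, 0 were lower (0 also at an unadjusted p below 0.05 in limma) and 4 did not pass. The list median was 1.37, beside -0.005 for all genes. Without the members, 4 of 6 were higher (Hk1, Aldoc, Tpi1 and Gapdh), with a median of 1.33. All 13 means were above 0, beside 49.4% of all genes, and the 4 that did not pass were Pfkl, Pfkp, Pfkm and Eno3. The list's other 16 genes, among them Gpi1, Pgam1 and Eno1, were not measured.

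**Figure D3:**
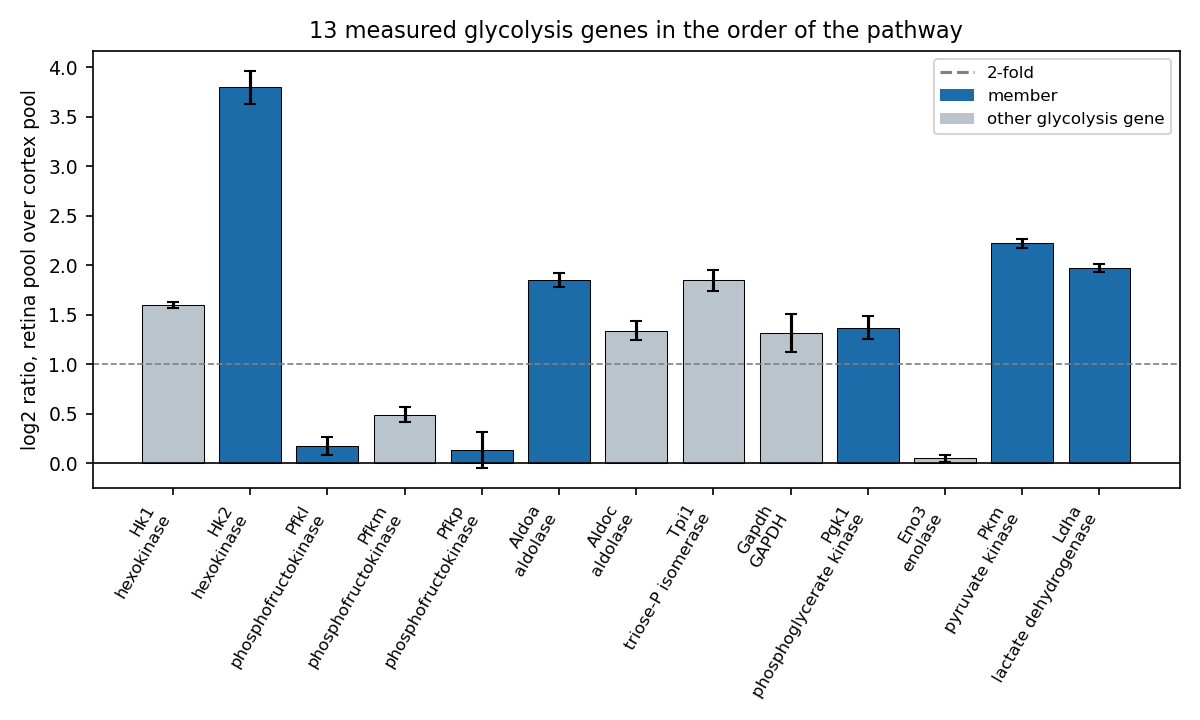
Bars give the mean log2 ratio of retina over cortex (vertical axis) of 13 glycolysis genes in pathway order (horizontal axis), with the SD over 5 arrays as error bars, the 7 members in blue and a dashed line at 2-fold. Only the 3 phosphofructokinase genes and Eno3 fall below the line, at 0.05 to 0.49.

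Around the pathway, the list medians were nearer to 0, though single genes such as Arnt2, at -2.29, lay far from it. In 11 other lists of glucose use and its control, 5 of 96 measured genes were higher and 3 lower, or 8 in all, beside 6.63% of all genes, and their median was 0.06. Glycolysis and these lists were chosen with earlier results of these data in view, and no test between them was made.

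The glucose and lactate transport list had 1 of 8 genes higher. This was Slc2a1, the glucose transporter GLUT1, at 1.29 ± 0.09 (limma adjusted p = 0.00249). Its 2 probes read 2.53 ± 0.16 and 0.05 ± 0.05, so the mean rests on the first, and with the lower one alone the call was lost (limma adjusted p = 1). Slc16a1, the lactate transporter MCT1, stood at 1.10 ± 0.03, with probes at 1.68 and 0.52. It did not pass, but lay at the threshold (limma adjusted p = 0.05 as rounded). Slc16a1 did pass with the noisiest genes left out and at a minimum of 1.5-fold. Slc16a3, the lactate exporter MCT4, read between 0.54 and 1.41 on single arrays, a mean of 0.97 ± 0.36. Bsg, basigin, which carries both lactate transporters to the membrane, stood at 0.43 ± 0.06. Neither of these 2 genes passed.

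The enzymes that set fructose 2,6-bisphosphate, the main activator of phosphofructokinase, had ratios under 1.5-fold as gene means. Among them, Tigar had probes at 0.78 ± 0.37 and 0.23 ± 0.07. In that list, with the 2,3-bisphosphoglycerate enzymes, 0 of 6 passed in limma (0 at an unadjusted p below 0.05), and Pfkfb3 was farthest from 0 at -0.55 ± 0.08. Of 10 genes of pyruvate dehydrogenase and its control 0 passed (0 unadjusted), with the phosphatase Pdp1, which activates the complex, farthest at -0.95 ± 0.11. In the tricarboxylic acid cycle 0 of 13 passed (0 unadjusted), with a list median of -0.16 and Sdha highest at 0.87 ± 0.08.

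Side branches of the pathway were likewise close to 0 for most genes. No gene passed limma's 2-fold test, adjusted or not, among 6 of the pentose phosphate pathway, 4 of gluconeogenesis and 4 creatine and adenylate kinases. Those farthest from 0 were Rpia (-0.43 ± 0.50), Pck2 (0.42 ± 0.10) and Ak4 (0.54 ± 0.10). In the glycogen list 1 of 11 was higher, the branching enzyme Gbe1 at 1.53 ± 0.14 (limma adjusted p = 0.000874). Of 9 genes of the NADH shuttles, 1 was higher and 1 lower. The aspartate aminotransferase Got1 stood at 1.41 ± 0.09 (limma adjusted p = 0.000395). The mitochondrial glycerol phosphate dehydrogenase Gpd2 stood at -1.44 ± 0.08 (limma adjusted p = 0.000178). Its 3 probes were all below 0, at -2.16, -1.27 and -0.90, and with the middle one alone the call was lost (limma adjusted p = 0.120).

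Among 15 hypoxia factors and further targets of theirs, 1 was higher and 1 lower, beside 2.8% higher and 3.83% lower of all genes. The stress-induced mTOR inhibitor gene Ddit4 stood at 1.44 ± 0.06 (limma adjusted p = 7.66e-05). Arnt2, the partner of hypoxia factors in neurons, stood at -2.29 ± 0.06 or 4.89-fold lower in retina (limma adjusted p = 4.62e-07). Hif1a had probes at 1.35 and 0.13 and a mean of 0.74 ± 0.07, and Arnt a mean of 0.25 ± 0.08, and neither passed. Of the 15 means 11 were above 0, with a median of 0.25, beside -0.0048 over all genes. Among 11 measured genes of the glucose-sensing and other regulators list, the AMP-activated kinase subunit Prkab1 was higher at 1.84 ± 0.04 (limma adjusted p = 1.79e-06). Mycn was lower at -1.82 ± 0.11 (limma adjusted p = 2.78e-05). The other 9 did not pass.

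**Figure D4:**
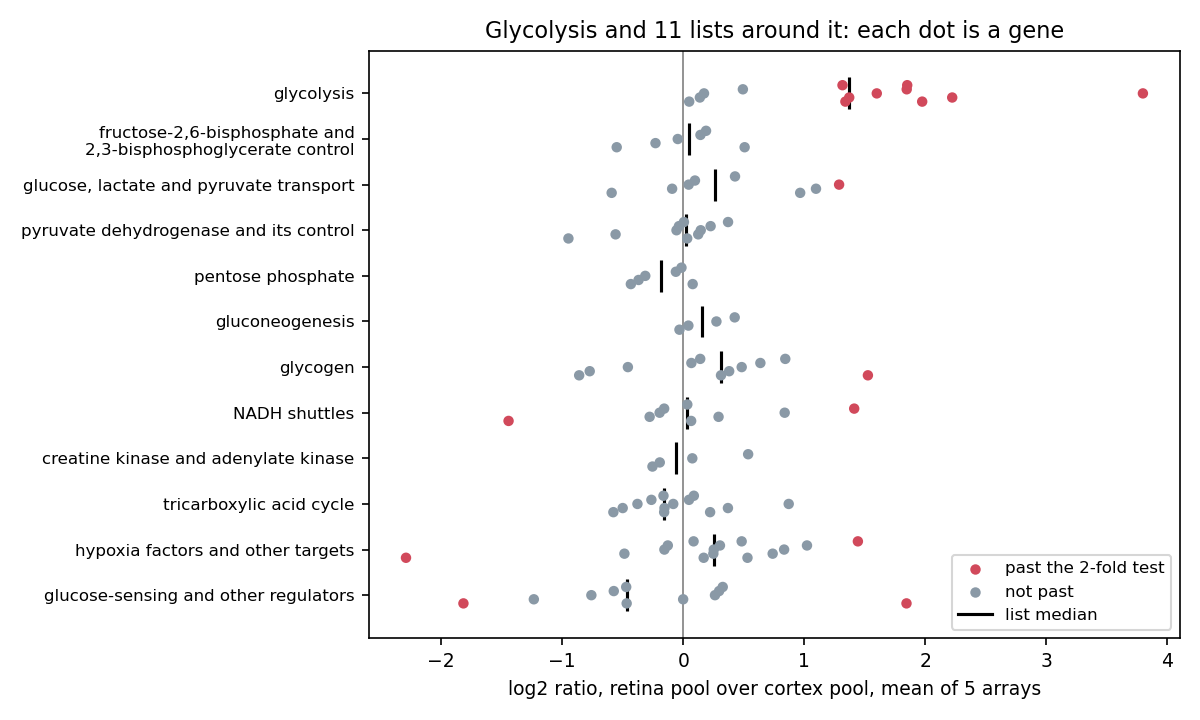
Each dot is the mean log2 ratio of retina over cortex (horizontal axis) of a gene in glycolysis or 1 of 11 further lists (vertical axis), in red where it passed the 2-fold test, with a black line at the list median. The glycolysis median is 1.37, and those of the other lists lie between -0.47 and 0.31.

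The arrays deviated together for many of these genes. Array 4 gave the lowest value for 8 of the 13 glycolysis genes, among them the members Hk2, Aldoa, Pgk1 and Ldha, beside 14.4% of all genes and 17.9% of the 246 genes higher in retina. Array 5 gave the highest for 8 of 13, among them Aldoa and Pgk1, beside 30.6% of all genes and 34.6% of the higher ones. The median deviation of the 13 genes from their own means was -0.09 on array 4 and 0.05 on array 5, and that of all genes 0.004 and 0.02. Hk2, Pfkl, Pfkp and Pkm departed from this pattern, with array 5 below their mean. Ratios of genes that deviate together share array error, which their separate SDs do not show.

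**Figure D5:**
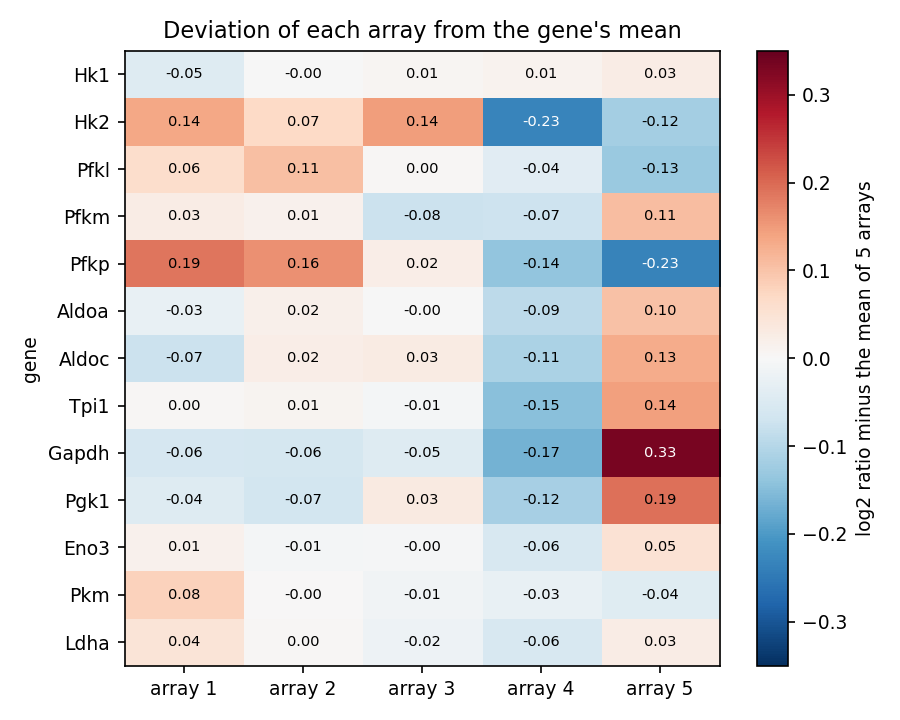
Colour and figures give the log2 ratio on each array (horizontal axis) minus the gene's mean over 5 arrays, for 13 glycolysis genes in pathway order (vertical axis). On array 5 Gapdh stands 0.33 above its mean and Pgk1 0.19, and on array 4 Hk2 stands 0.23 below.

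The SDs of the member genes lay under the 95th percentile of all genes. The median SD over all genes was 0.085 log2 and the 95th percentile 0.354. Ldha (0.04) and Pkm (0.05) were among the steadier genes, as 88.8% and 82.2% of genes had a larger SD. The Ldha SD is that of a mean over 2 probes, each with an SD of 0.06. Pfkp, at 0.18, lay on the other side with 15.3%.

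Genes outside all lists with the most similar values were found by the root mean square difference over the 5 arrays. Nearest to Hk2 were Kcnj14, a potassium channel (0.16 log2), and Agpat3, an acyltransferase (0.27). Nearest to Pkm were Cebpd (0.04) and Lyar (0.07), and nearest to Ldha Mrpl49 and Mcfd2 (0.05 each). The 5 values repeat 1 comparison, so likeness here is likeness of the ratio.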

How the data were processed

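Total RNA of 1 retina pool and 1 cortex pool was measured on 5 two-colour arrays. The values deposited by the authors, 1 column per array, were read as log10 ratios, the base and direction being likely only. The sources used here do not state the background correction, dye normalization, filters or build. The deposited column medians were 0 on arrays 1 to 4 and -7.32e-05 on array 5. The number of arrays limits the precision for this pair of pools. With 1 pool per tissue, no number of arrays would give the spread between animals.

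A factor of 3.32 turned them into log2 ratios, and an exact 0 (174 to 1068 per array, none in a member) was read as no value. Probes were named by the platform annotation (11813 with 1 symbol, 559 with several, 9074 not listed), and by gene identifier 11782 matched a RefSeq table of GRCm38.p6. A gene is the mean of its probes with 5 values. limma 3.58.1 in R 4.3.3 fitted an intercept and tested it against 2-fold (treat, two-sided). On simulated data for 8798 genes it recovered 85.1% of genes at a log2 size of 1.5 and 95.5% at 2. Promoters are RefSeq windows of 250 bases, and the motifs were chosen with the ratios known.

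Members and lists were chosen with earlier results of these data known. Named genes are the members, all measured glycolysis genes, from each other list the 2 passed genes farthest from 0 with 1 sign on all arrays (or the 1 farthest), and the 2 nearest outside genes to Hk2, Pkm and Ldha. Bsg, Slc16a1, Slc16a3, Hif1a, Arnt, Ptbp1, Ptbp2 and Hnrnpa2b1 were added after their values were seen. Alternatives covered centring, scaling, missing values, noisy genes, the probe rule, prior, array weights, minimum fold, log base and each array left out.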

Additional observations from a re-analysis of the deposited data

Results flagged for a closer look

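On array 5 Gapdh read 1.65, apart from the other 4 arrays, which lay from 1.15 to 1.27. The glycogen branching enzyme Gbe1 likewise stood at 1.77 there, with 1.41 to 1.51 elsewhere. Both genes kept their sign on all arrays. An array stood apart in 2 of 35 measures checked, and chance gives about 5% of them. No member probe was among them.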

How the results depend on the processing

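Reading exact 0 as a ratio of 1 and leaving out arrays 1 and 4 together were chosen after seeing the data. With a log2 base for the deposited values, 7 genes and 8 probes passed the 2-fold test, and 0 genes of glycolysis and 0 of the other 11 lists, because each ratio is then smaller. A minimum of 1.5-fold gave 1408 genes, 3050 probes and 17 genes of the other lists in place of 583, 1537 and 8, and left 9 in glycolysis. Fits on 4 of the 5 arrays gave 528 to 562 genes, 1427 to 1513 probes, 8 to 9 glycolysis genes and 8 to 9 of the other lists, and Gapdh was the glycolysis call lost. Gapdh was also lost with arrays scaled to equal spread (limma adjusted p = 0.0661) and without arrays 1 and 4 (0.131). Under the other alternatives these counts stayed within 1.5 times.

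Apart from the log base, 287 of 291 alternative values of the member genes and probes moved by less than their SD between arrays. One was the Hk2 probe under quantile normalization, at 4.04 in the probe fit, while the Hk2 gene value, at 3.91, moved by less than its SD. The others came from taking 1 probe per gene in place of the mean. That rule took the middle probe or, with an even number of probes, the lower of the middle pair. It gave Ldha at 1.65, Pfkl at -0.02 and Pfkp at -0.35, which are low by construction and are not medians. The signs of Pfkl and Pfkp thus depend on the probe. No paired analysis was possible because the arrays form 1 group and each carries both pools. Brightness over background was not analysed here.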
